A study of Mus musculus with 6 samples.

Results

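The 44 collagen genes of the mouse were described in kidney cortex, out of 24421 genes in the count table. They were chosen by symbol alone (Col, a type number, a and a chain number) and sorted by type into 11 fibrillar genes (types I, II, III, V, XI, XXIV and XXVII), 6 basement membrane genes (type IV) and 27 genes of all other types. RNA-seq was compared between cortex of mice with I-PpoI in proximal tubular epithelial cells (titled PT-I_Ppo-1, here PT-I-PpoI, 3 libraries) and cortex of wild type mice (3 libraries). I-PpoI is a site-specific endonuclease that makes double-strand breaks in DNA. The promoter that drives it, and the strain, age and any treatment of the mice, are not given in the sources used here. The comparison asks whether collagen transcripts differ when the proximal tubule carries this enzyme. Since the labels do not tie each library to a separate mouse, the spread behind every p-value is that between libraries and may be technical.

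Collagens are proteins of 3 chains wound into a triple helix, and each gene encodes 1 kind of chain. Fibrillar collagens form the cables of the interstitium and accumulate in kidney scarring, and fibroblasts and pericytes are their known main source. Type IV collagen forms the network of basement membranes. In the kidney, a network of the alpha 1 and alpha 2 chains lies under most tubules and vessels, and a network of the alpha 3, alpha 4 and alpha 5 chains lies in the glomerular filter and under some tubules. Types such as VI, XII, XIV and XVI join fibrils to other matrix, and types XV and XVIII sit at basement membranes although they are counted here among the other types.

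Libraries held 13.6 to 20.9 M counted read pairs, and collagen genes took 0.111 to 0.122% of them. Library names have a hyphen before the last number in replicate 3 of PT-I-PpoI and in replicates 2 and 3 of wild type. The names of replicates 1 and 2 of PT-I-PpoI and of replicate 1 of wild type have none. The first principal component of all genes (43.1% of the variance) separated the libraries by that form, which the labels do not call a batch. Differences within the names without and with a hyphen are therefore given in that order beside some of the pooled ones. Each rests on 1 library in 1 of its groups. The unit of a level is CPM, the count scaled to the TMM-adjusted library total, listed for replicates 1, 2 and 3 of a group. Levels of different genes are compared as CPM per kb of exon. Sums over genes and shares of them are of CPM, in which genes with longer exons weigh more. In bulk cortex, fewer cells of a type and less RNA per cell cannot be told apart.

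No collagen gene passed the test in either direction. Of the 44 genes, 32 had enough counts to be tested, namely 9 fibrillar, 6 basement membrane and 17 other genes. In the same fit 19 of 13977 genes passed, which is 0.136% of those tested (edgeR's quasi-likelihood test, Benjamini-Hochberg adjusted p under 0.05), so 0 of 32 collagens is near the background. The smallest edgeR adjusted p among the collagens was 0.201. At an unadjusted p under 0.05, 2 collagens were higher in PT-I-PpoI (Col18a1 and Col8a1) and 3 were lower (Col19a1, Col16a1 and Col4a4), against 6.42% and 5.61% of all genes. Groups did not overlap for 2 higher genes (Col18a1 and Col6a2) and 1 lower gene (Col19a1), against 9.23% and 7.74% of all genes. Read against these shares, the counts give no result about the collagens. In a model that also held the library name form, 0 collagens passed, against 0.458% of all genes, and the smallest edgeR adjusted p was 0.126.

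The total collagen message of the cortex differed between the groups by less than its spread. Summed over all 44 genes it was 1147, 1103 and 1236 CPM in PT-I-PpoI and 1178, 1138 and 1186 CPM in wild type, with means of 1162 ± 68.1 and 1167 ± 25.9 CPM (SD, n = 3 each). The ranges overlapped, and the ratio of the means was 0.996. Of the tested collagens, 20 had log2 fold changes above 0 and 12 below, where 50.1% of all tested genes lay above 0. The collagen median was 0.06, and the median over all tested genes was 0.00. Within names without and with a hyphen the collagen medians were 0.04 and 0.05.

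Most of this message came from few genes. Col18a1 alone gave 15.3% of it, and Col18a1 with Col4a1, Col4a2, Col4a3 and Col4a4 gave 70.6%. With Col27a1 added, 6 genes gave 79.1%. By class, type IV genes made up 52.8 to 60.2% of collagen CPM over the 6 libraries, the other types 24.4 to 28.6% and fibrillar genes 14.9 to 18.7%. Per kb of exon, Col18a1 led with a mean of 30.8 over the libraries, followed by Col4a1 (26.5), Col4a2 (24.8), Col4a4 (19.2), Col4a3 (18.5) and Col27a1 (13.0). The chains of interstitial fibrils lay lower on that scale, with Col1a2 at 6.79, Col3a1 at 2.47 and Col1a1 at 1.78 CPM per kb.

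**Figure D1:**
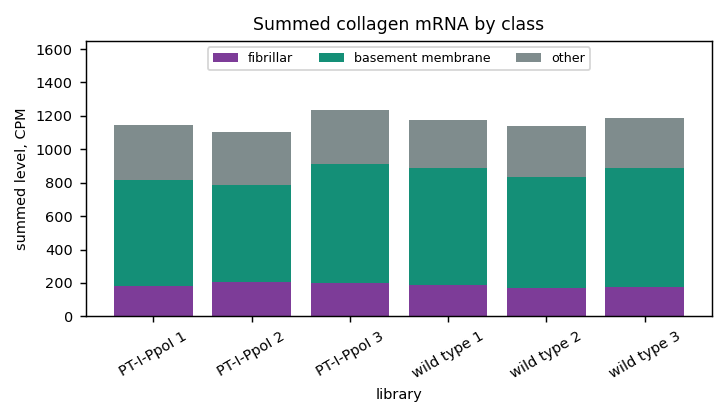
Summed level of the fibrillar, basement membrane (type IV) and other collagen genes in each library, in CPM. Type IV genes form the largest block in all 6 libraries, at 52.8 to 60.2% of the collagen total.

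**Figure D2:**
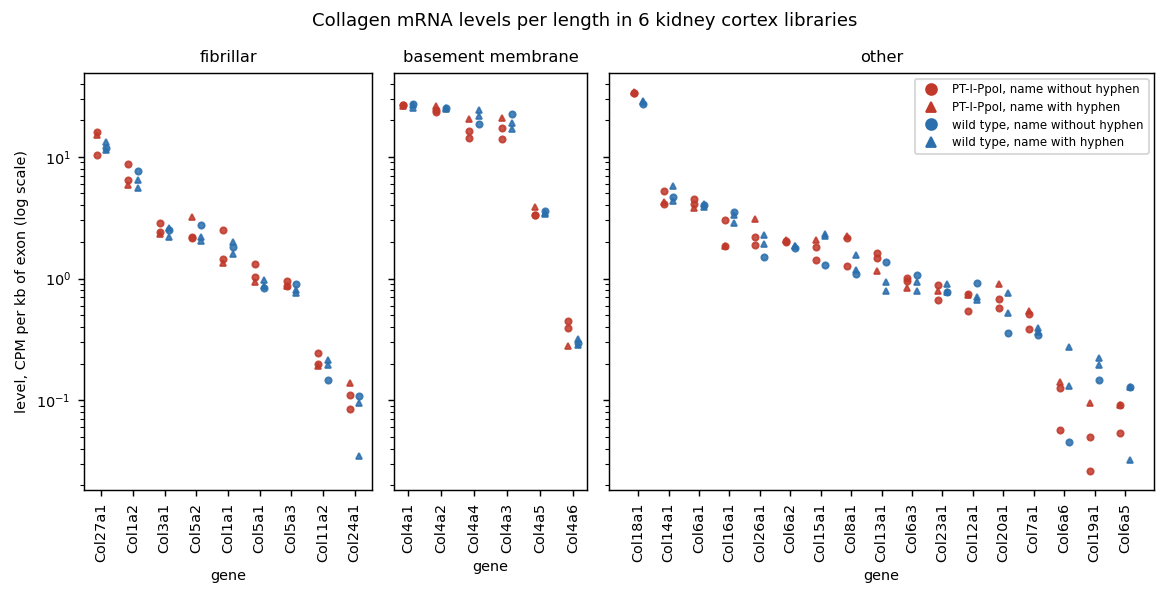
Level of each tested collagen gene in each library, in CPM per kb of exon on a log axis, by class, with PT-I-PpoI in red and wild type in blue. Col18a1 and Col4a1 to Col4a4 stand highest, and the groups overlap in every gene shown except Col18a1, Col6a2 and Col19a1. Circles and triangles mark library names without and with a hyphen.

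No fibrillar collagen passed the test. The sum of the class was 184, 206 and 202 CPM in PT-I-PpoI and 185, 172 and 177 CPM in wild type, or 197 ± 11.6 and 178 ± 6.41 CPM. PT-I-PpoI replicate 1 lay just under wild type replicate 1, so the groups overlapped. Of the 9 tested genes, 8 had log2 fold changes above 0, against 50.1% of all tested genes. The median of the 9 was 0.13 pooled, and 0.06 and 0.03 within the name forms. None of the 9 had an unadjusted p under 0.05, and in none did the groups separate.

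Col1a1 and Col1a2 encode the chains of type I collagen, the main fibril of scar tissue. Col1a1 (chromosome 11, 94936270 to 94951856, mm10) was at 11.7, 6.84 and 6.31 CPM in PT-I-PpoI and at 8.48, 9.46 and 7.47 CPM in wild type. PT-I-PpoI held both the highest and the lowest library, and the log2 fold change was -0.02 ± 0.23 (SE; edgeR adjusted p = 0.983). Col1a2 (chromosome 6, 4505697 to 4541543) was at 45.3, 33.3 and 30.1 CPM against 39.0, 33.0 and 28.7 CPM. Replicate 1 was highest in both groups, and the log2 fold change was 0.11 ± 0.17 (edgeR adjusted p = 0.798). The 95% interval of the fold was 0.682 to 1.43 for Col1a1 and 0.832 to 1.41 for Col1a2. The ratio of Col1a1 to Col1a2 per kb was 0.283, 0.225 and 0.229 in PT-I-PpoI and 0.238, 0.314 and 0.285 in wild type, with overlapping ranges.

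Col3a1, the chain of type III collagen, which shares fibrils with type I, was at 15.8, 13.5 and 12.9 CPM against 14.0, 14.4 and 12.1 CPM. Its log2 fold change was 0.06 ± 0.12 (edgeR adjusted p = 0.861). Type V collagen lies in the core of type I fibrils and limits their width. Its chain Col5a1 was at 11.1, 8.61 and 7.87 CPM against 7.08, 8.10 and 7.32 CPM, with only PT-I-PpoI replicate 3 inside the wild type range. The log2 fold change of 0.30 ± 0.16 missed the test (edgeR unadjusted p = 0.0891, adjusted p = 0.466), and it was 0.46 and 0.03 within the name forms. Col5a2 was at 14.5, 14.2 and 21.2 CPM against 18.3, 14.5 and 13.3 CPM, with 0.10 ± 0.19 as its log2 fold change (edgeR adjusted p = 0.843). Its differences within the name forms had opposite signs, at -0.35 and 0.61.

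Col27a1, the chain of type XXVII collagen, known from cartilage, made up 52.9% of the fibrillar CPM. It was at 78.6, 121.6 and 116.2 CPM in PT-I-PpoI and at 91.0, 86.5 and 101.7 CPM in wild type. PT-I-PpoI held the highest and the lowest library, so the groups overlapped. The log2 fold change was 0.18 ± 0.16 (edgeR adjusted p = 0.650), and the 95% interval of the fold ran from 0.886 to 1.45. Of the remaining fibrillar genes, Col5a3, Col11a2 and Col24a1 had log2 fold changes of 0.13 ± 0.15, 0.21 ± 0.28 and 0.49 ± 0.45 at means of at most 5.47 CPM. Col2a1 and Col11a1, chains of cartilage collagen, were not tested, with 4 and 5 counts over the 6 libraries.

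Type IV genes were the most abundant class, and none passed the test. Their sum was 635, 583 and 708 CPM in PT-I-PpoI and 705, 664 and 714 CPM in wild type, with means of 642 ± 63.1 and 695 ± 26.4 CPM and overlapping ranges. Of the 6 genes, 3 had log2 fold changes above 0 and 3 below, with a median of 0.00 pooled and of -0.10 and 0.05 within the name forms.

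Col4a1 (chromosome 8, 11198423 to 11312826) and Col4a2 (chromosome 8, 11312829 to 11449287) encode the chains of the common network and start back to back, with 2 bases between them. Col4a1 was at 177.8, 176.1 and 174.3 CPM in PT-I-PpoI and at 179.1, 166.9 and 176.1 CPM in wild type. Its highest library was only 1.07-fold above its lowest, the narrowest range of the 32 tested collagens. Col4a2 was at 156.8, 150.3 and 167.0 CPM against 161.9, 157.9 and 160.8 CPM, a range of 1.11-fold. The log2 fold changes were 0.02 ± 0.07 and -0.02 ± 0.08 (edgeR adjusted p = 0.943 and 0.931). The 95% intervals of the fold were 0.902 to 1.13 for Col4a1 and 0.875 to 1.11 for Col4a2, so larger differences in either direction fall outside them. Per kb, Col4a1 stood to Col4a2 at 1.01 to 1.14 in PT-I-PpoI and at 1.03 to 1.08 in wild type, close to level in every library.

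Col4a3 (chromosome 1, 82586921 to 82722059) and Col4a4 (chromosome 1, 82450723 to 82586849) encode chains of the glomerular network and also start back to back. The stretch between their start sites is shown because both chains are read outward from it. It is 71 bases long (GRCm38.p6, chr1:82586850-82586920, minus strand, reading towards Col4a4), is 69.0% G or C, holds 2 CpG and overlaps no exon of the count table.
Col4a4 and Col4a3 gap: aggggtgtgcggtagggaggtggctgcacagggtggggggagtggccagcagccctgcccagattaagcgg
No letters are in capitals, because none of 3 motifs searched on both strands was found in it. The GC box, GGGCGG, occurs in 20.7% of 71-base windows before the start sites of all RefSeq genes. The sequence CCAAT occurs in 13.3% of them. The TATA box, searched as TATAAA, occurs in 4.41%.

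Both genes varied more between libraries than Col4a1 and Col4a2 did. Col4a3 was at 148.4, 119.7 and 181.1 CPM in PT-I-PpoI and at 194.0, 146.1 and 163.9 CPM in wild type. Its log2 fold change was -0.17 ± 0.16 (edgeR adjusted p = 0.677), with -0.54 and 0.23 within the name forms, so the sign depended on the libraries compared. Col4a4 was at 127.0, 112.2 and 158.6 CPM against 145.0, 169.5 and 188.7 CPM. Its log2 fold change was -0.34 ± 0.14 (edgeR unadjusted p = 0.0428, adjusted p = 0.401), with -0.28 and -0.17 within the name forms. PT-I-PpoI replicate 3 lay above wild type replicate 1, so the groups overlapped. The highest library stood above the lowest by 1.62-fold for Col4a3 and by 1.68-fold for Col4a4.

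The balance of the 2 chains was not constant. Per kb, Col4a3 stood to Col4a4 at 1.06, 0.967 and 1.04 in PT-I-PpoI and at 1.21, 0.782 and 0.788 in wild type. Wild type replicate 1 lay above all 3 PT-I-PpoI libraries and the other wild type libraries below them. Col4a5 (chromosome X, 141475419 to 141689235), the third chain of that network, was at 21.6, 21.7 and 25.3 CPM against 23.5, 22.0 and 22.3 CPM, with 0.01 ± 0.10 as its log2 fold change (edgeR adjusted p = 0.966). It stood to Col4a4 at 0.192 to 0.232 per kb in PT-I-PpoI and at 0.142 to 0.195 in wild type. The ranges overlapped, and Col4a5 was the scarcer chain in every library. Col4a6, which pairs with Col4a5 in the basement membrane of Bowman's capsule, was at 1.84 to 2.96 CPM against 1.89 to 2.12 CPM, a log2 fold change of 0.32 ± 0.24. Podocytes are the known source of the glomerular chains. The summed level of 7 podocyte markers was 429 to 552 CPM in PT-I-PpoI against 396 to 461 CPM in wild type. Of these markers, 0 of 7 separated the groups, and all 7 had log2 fold changes above 0. Their median was 0.20 pooled, and 0.10 and 0.31 within the name forms. The part of cell number in these values was not tested.

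**Figure D3:**
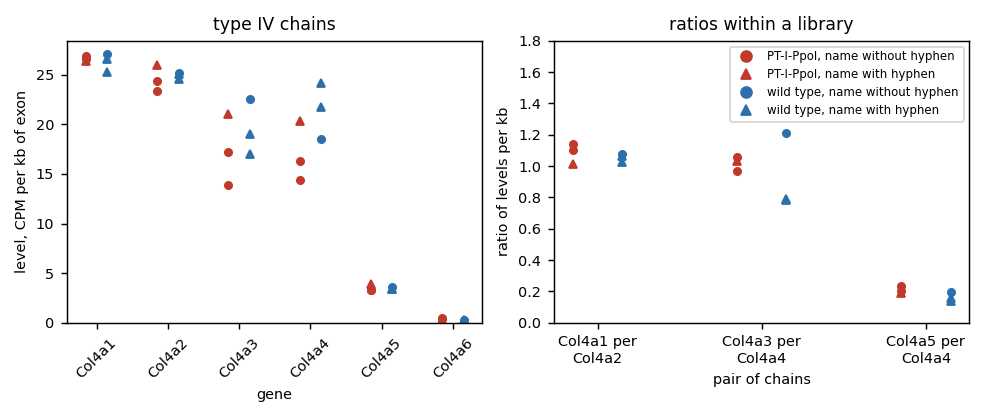
Left, level of the 6 type IV chains in each library, in CPM per kb of exon. Right, ratio of chain levels per kb within each library. Circles and triangles mark library names without and with a hyphen. Col4a1 and Col4a2 keep near 1 to 1, while the ratio of Col4a3 to Col4a4 spans 0.782 to 1.21 in wild type.

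The other types held the collagens with the smallest p in each direction. Their sum was 329, 314 and 326 CPM in PT-I-PpoI and 287, 301 and 295 CPM in wild type, or 323 ± 7.69 and 295 ± 6.81 CPM. All 3 PT-I-PpoI libraries lay above all 3 wild type libraries. Col18a1 made up 57.8% of this sum. Its own means of 194 and 163 CPM lay farther apart than those of the sum, so the higher mean of the sum rests on Col18a1. The median log2 fold change of the 17 tested genes was 0.00, with 9 above 0 and 8 below, and it was 0.19 and 0.09 within the name forms.

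Col18a1 (chromosome 10, 77052179 to 77166530), the chain of type XVIII collagen, is a basement membrane heparan sulfate proteoglycan whose end fragment is endostatin. It was at 192.5, 193.7 and 196.7 CPM in PT-I-PpoI and at 158.2, 163.1 and 167.0 CPM in wild type. All PT-I-PpoI libraries lay above all wild type libraries, and each value rests on 2154 to 3638 counts. Its log2 fold change was 0.26 ± 0.07, a fold of 1.19 with a 95% interval of 1.07 to 1.34 (edgeR unadjusted p = 0.00653, adjusted p = 0.254). It was 0.29 and 0.25 within the name forms. Fitted together with the name form, the log2 fold change was 0.27 ± 0.06 (edgeR adjusted p = 0.130). It did not pass the test.

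Col18a1 has start sites of 2 kinds in RefSeq, which give forms of the protein that differ at the start, and the exon counts merge them. The 150 bases before each start (GRCm38.p6, minus strand) are shown because the level above cannot be split between them. The first is chr10:77166531-77166680 and the second chr10:77113706-77113855. Capitals mark the GC box, here CCGCCC, the other strand of GGGCGG.
Col18a1 upstream start: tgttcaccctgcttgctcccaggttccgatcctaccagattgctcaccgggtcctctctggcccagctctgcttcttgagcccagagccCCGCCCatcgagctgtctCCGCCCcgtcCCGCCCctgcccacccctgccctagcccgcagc
Col18a1 downstream start: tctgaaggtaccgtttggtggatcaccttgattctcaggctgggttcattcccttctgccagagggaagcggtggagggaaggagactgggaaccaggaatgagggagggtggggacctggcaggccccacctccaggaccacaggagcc
The upstream window holds 3 GC boxes and 8 CpG and is 68.0% G or C. The downstream window holds 0 GC boxes and 2 CpG and is 60.7% G or C. Neither holds CCAAT or TATAAA on either strand. GGGCGG occurs in 28.6% of such 150-base windows over all RefSeq genes, and in 19 of 38 windows of the 35 collagen genes matched there. CCAAT occurs in 24.5% of all windows and 8 of the 38, and TATAAA in 7.57% of all and 4 of the 38.

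Markers of several other cell types of the kidney were higher in the same libraries. Over all tested genes 9.23% were higher without overlap. Summed endothelial markers (8 genes) reached 769 to 813 CPM in PT-I-PpoI against 658 to 739 CPM in wild type, with 3 of 8 genes higher without overlap. The median log2 difference of these 8 genes was 0.01 and 0.30 within the name forms, so it was near 0 in the names without a hyphen. Thick ascending limb markers (4 genes) were at 5559 to 5682 against 3795 to 4218 CPM, with 4 of 4 higher. Their median was 0.51 and 0.58 within the name forms. Collecting duct markers (6 genes) were at 554 to 768 against 433 to 451 CPM, with 5 of 6 higher. Inner medulla markers (4 genes) were at 225 to 257 against 114 to 157 CPM, with 2 of 4 higher. Those were Slc14a2, with means of 90.4 against 18.5 CPM, and Aqp6, with 70.9 against 50.2 CPM. Sostdc1 and Ndufa4l2 overlapped, with means of 72.7 against 63.8 CPM and 4.63 against 4.61 CPM. Medians within the name forms were 0.66 and 0.64 for the collecting duct and 0.54 and 0.20 for the inner medulla. Macrophage markers (4 genes) were at 86.0 to 91.0 against 72.8 to 83.5 CPM, with 0 higher without overlap. Their median log2 difference was 0.00 and 0.19 within the name forms. The sums of mesangial, parietal epithelium, urothelium and fat markers overlapped. Proximal tubule markers (6 genes) were at 6759 to 10401 against 9063 to 12440 CPM, with 0 separating. All 6 had log2 fold changes below 0, with medians of -0.28 and -0.09 within the name forms. The part of these cell types in the Col18a1 values was not tested.

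Col19a1 (chromosome 1, 24257683 to 24587437), the chain of type XIX collagen, a scarce fibril-associated collagen, had the smallest p of all collagens. It was at 0.529, 0.276 and 0.992 CPM in PT-I-PpoI and at 1.54, 2.35 and 2.04 CPM in wild type, from 10, 5 and 14 counts against 32, 31 and 41 counts. All PT-I-PpoI libraries lay below all wild type libraries. On the log2 scale the fold change was -1.75 ± 0.41, a fold of 0.298 with a 95% interval of 0.155 to 0.571 (edgeR unadjusted p = 0.00241, adjusted p = 0.201). Within the name forms it was -1.73 and -1.03, values that the prior count of 2 pulls upward at such low counts. It did not pass the test. Without PT-I-PpoI replicate 3 the log2 fold change was -2.25 and the edgeR adjusted p was 0.0305. That fit called 625 of 14219 genes, 4.4% in either direction and 2.56% lower, against 19 genes with all libraries. It kept no PT-I-PpoI library with a hyphen in its name, so group and name form were partly mixed in it. DESeq2 called Col19a1 and no other collagen (log2 fold change -1.76, adjusted p = 0.0459). That tool called 0.42% of 14034 genes lower and 1.32% in either direction. The 150 bases before its start are shown as the counterpart of the Col18a1 windows (GRCm38.p6, chr1:24587438-24587587, minus strand).
Col19a1: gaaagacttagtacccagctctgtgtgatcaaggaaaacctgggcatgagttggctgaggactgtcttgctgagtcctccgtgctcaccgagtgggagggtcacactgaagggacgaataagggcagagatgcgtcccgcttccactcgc
It is 56.0% G or C, holds 6 CpG and has no letters in capitals, since none of the 3 motifs was found on either strand.

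Col16a1, the chain of type XVI collagen, which links fibrils to cells, was at 15.7, 9.60 and 9.71 CPM in PT-I-PpoI and at 18.2, 17.3 and 14.9 CPM in wild type. PT-I-PpoI replicate 1 lay inside the wild type range and the other PT-I-PpoI libraries below it. Its log2 fold change was -0.52 ± 0.20 (edgeR unadjusted p = 0.0283, adjusted p = 0.368), with -0.56 and -0.72 within the name forms. Col8a1, a chain of type VIII collagen, a short-chain collagen of vessel walls, was at 6.46, 11.1 and 11.4 CPM against 5.54, 6.06 and 8.02 CPM. PT-I-PpoI replicate 1 again lay inside the wild type range. The log2 fold change was 0.55 ± 0.24 (edgeR unadjusted p = 0.0483, adjusted p = 0.414), with 0.61 and 0.70 within the name forms. Summed smooth muscle and myofibroblast markers (7 genes), whose cells are known to make type VIII collagen, reached 143 to 192 CPM in PT-I-PpoI against 114 to 155 CPM in wild type. Of these, 2 of 7 were higher without overlap, against 9.23% of all genes, and their part was not tested.

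**Figure D4:**
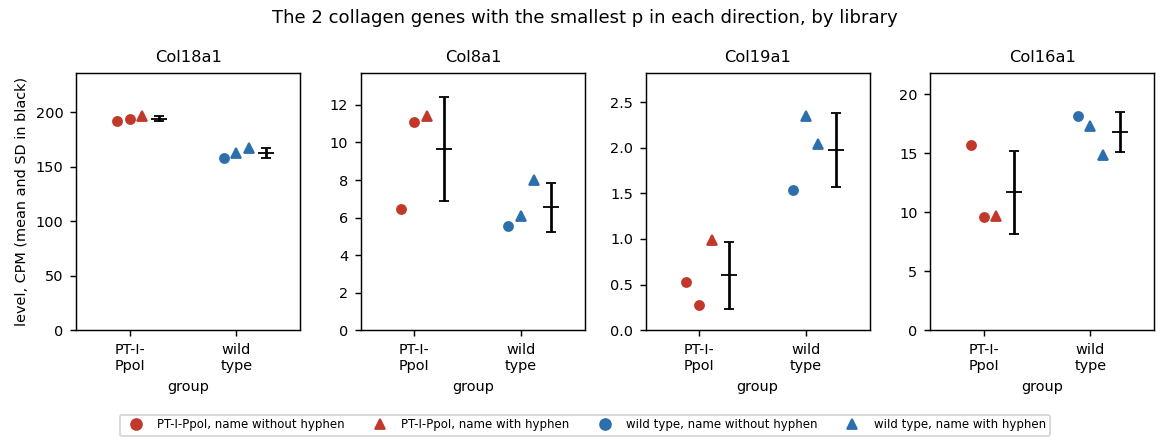
Level in CPM of Col18a1, Col8a1, Col19a1 and Col16a1 in each library, with the mean and SD of each group (n = 3) in black. Col18a1 and Col19a1 separate the groups in opposite directions, at 192.5 to 196.7 against 158.2 to 167.0 CPM and at 0.276 to 0.992 against 1.54 to 2.35 CPM, and none of the 4 genes passed the adjusted test.

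Type VI collagen, a beaded microfilament around cells, is made of 1 chain each of alpha 1, alpha 2 and alpha 3. Col6a1 was at 17.9, 16.3 and 15.1 CPM in PT-I-PpoI and at 16.0, 16.3 and 15.4 CPM in wild type, a log2 fold change of 0.05 ± 0.10. Col6a2 was at 7.51, 7.50 and 7.72 CPM against 6.60, 6.89 and 6.87 CPM, so the groups did not overlap, but the log2 fold change of 0.16 ± 0.12 did not pass (edgeR unadjusted p = 0.218). Col6a3 was at 10.8, 10.3 and 9.14 CPM against 11.5, 10.2 and 8.57 CPM, a log2 fold change of 0.00 ± 0.14 whose sign turned under other settings. Per kb, Col6a1 stood to Col6a2 at 1.83 to 2.24 in PT-I-PpoI and at 2.10 to 2.28 in wild type, and Col6a3 to Col6a2 at 0.407 to 0.497 and at 0.429 to 0.600. Both pairs of ranges overlapped.

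Col14a1, Col12a1 and Col7a1 had overlapping groups. Col14a1, the chain of type XIV collagen, which coats fibrils, was at 34.0, 26.5 and 27.6 CPM against 30.3, 37.0 and 27.8 CPM, with -0.10 ± 0.14 as its log2 fold change (edgeR adjusted p = 0.770). Col12a1, of the related type XII, was at 8.78, 6.40 and 8.58 CPM against 10.7, 7.87 and 8.32 CPM, with -0.19 ± 0.18 as its log2 fold change (edgeR adjusted p = 0.675). Col7a1, the chain of anchoring fibrils, was at 3.55, 4.69 and 4.96 CPM against 3.18, 3.33 and 3.64 CPM, with 0.37 ± 0.19 as its log2 fold change (edgeR adjusted p = 0.456). Its exons overlap those of Mir711, and the counting did not use strand. Col15a1, of the basement membrane type XV related to type XVIII, was at 7.50 to 10.98 CPM against 6.84 to 12.3 CPM, a log2 fold change of -0.13 ± 0.24. The transmembrane collagens Col13a1 and Col23a1 had log2 fold changes of 0.45 ± 0.24 and -0.07 ± 0.17. Col20a1 and Col26a1 had log2 fold changes of 0.41 ± 0.31 and 0.31 ± 0.23. Col6a5 and Col6a6, at means of 0.731 to 1.12 CPM, had -0.38 ± 0.48 and -0.50 ± 0.62.

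**Figure D5:**
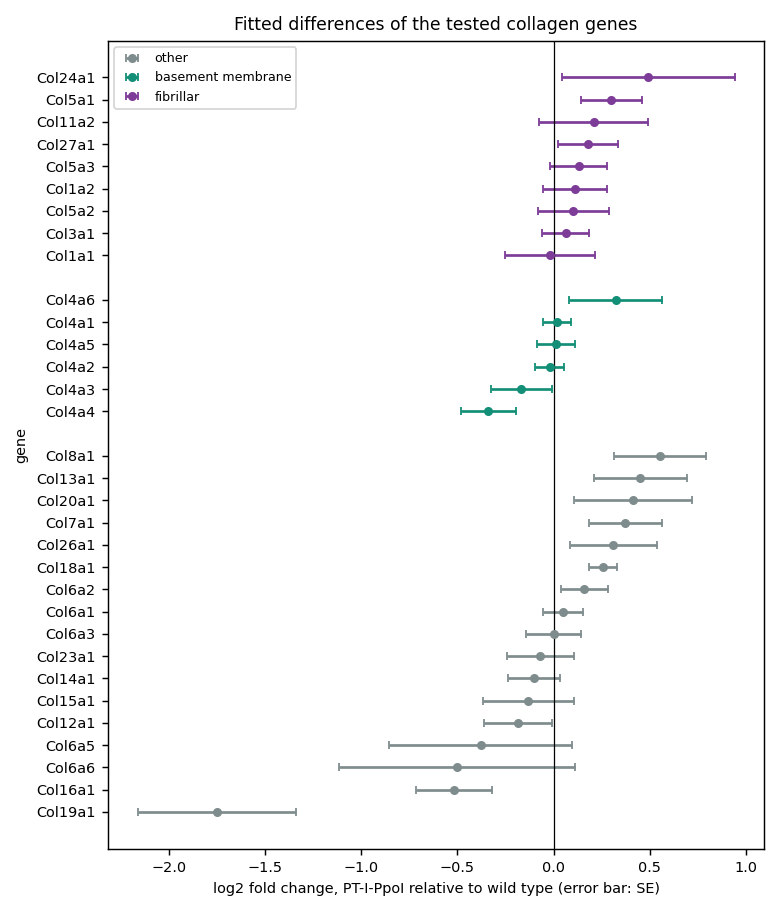
Fitted log2 fold change and SE of each of the 32 tested collagen genes (above 0 is higher in PT-I-PpoI), coloured by class. Fibrillar genes lie between -0.02 and 0.49, type IV genes between -0.34 and 0.32, and Col19a1 stands farthest from 0 at -1.75.

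In total, 12 collagen genes were too scarce to be tested, with 4 to 50 counts over the 6 libraries. They were Col2a1, Col6a4, Col8a2, Col9a1, Col9a2, Col9a3, Col10a1, Col11a1, Col17a1, Col22a1, Col25a1 and Col28a1. These include the cartilage collagens of types II, IX and X, Col11a1 of type XI, and type XVII of epidermal attachment. A count of 0 in a library allows a level of up to 0.144 to 0.227 CPM, from 3 counts of its total and for counting error only. Col6a4, a chain related to type VI, was at 0.423, 0.276 and 0.425 CPM in PT-I-PpoI and at 0.578, 0.606 and 0.548 CPM in wild type, from 50 counts in all. It was the only one of the 12 whose groups did not overlap, with PT-I-PpoI the lower, against 7.74% of all tested genes. Fitted without the filter, over 18677 genes, its log2 fold change was -0.62 ± 0.46 (edgeR adjusted p = 0.661). None of the 12 passed in that fit, where their smallest edgeR adjusted p was 0.535, for Col17a1.

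The enzymes and partners of collagen showed no called gene in any of 6 lists, against 0.136% of all genes. Counts in these lists at an unadjusted p under 0.05 stand against 6.42% of all genes higher and 5.61% lower. Those of groups without overlap stand against 9.23% higher and 7.74% lower, and those of log2 fold changes above 0 against 50.1%. Chain modification and folding had 17 of 18 genes tested, 12 with log2 fold changes above 0 and 5 below. The median was 0.07 pooled, and 0.09 and 0.08 within the name forms. At an unadjusted p under 0.05, 2 were higher and 0 lower, and 4 were higher and 0 lower without overlap. P3h4, a partner of the collagen lysyl and prolyl hydroxylases, had the smallest p. It was at 14.2, 17.3 and 8.93 CPM in PT-I-PpoI and at 8.33, 6.66 and 6.23 CPM in wild type, so the groups did not overlap. The log2 fold change was 0.93 ± 0.24 (edgeR adjusted p = 0.210). It was the only gene of these lists that DESeq2 called (adjusted p = 0.0224), a tool that called 1.32% of all genes. Leaving out PT-I-PpoI replicate 3 gave P3h4 an edgeR adjusted p of 0.0159, in a fit that called 1.84% of all genes higher. That fit kept no PT-I-PpoI library with a hyphen in its name. P3h2, a prolyl 3-hydroxylase known to act on type IV collagen, had a log2 fold change of 0.23 ± 0.09 (edgeR unadjusted p = 0.0348).

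Propeptide removal and cross-linking had 11 of 13 genes tested, 8 above 0 and 3 below. Their median was 0.27 pooled, and 0.01 and 0.26 within the name forms, so it was near 0 in the names without a hyphen. At an unadjusted p under 0.05, 2 were higher and 0 lower, and the same numbers were higher and lower without overlap. Bmp1, the protease that trims the ends of fibrillar procollagens, was at 15.8, 16.1 and 14.5 CPM against 13.1, 11.7 and 11.1 CPM. The groups did not overlap, and the log2 fold change was 0.37 ± 0.11 (edgeR unadjusted p = 0.0100, adjusted p = 0.289). Loxl1, a lysyl oxidase that cross-links elastin and collagen, was at 20.9, 19.3 and 16.4 CPM against 15.1, 14.9 and 14.99 CPM, with 0.33 ± 0.11 as its log2 fold change (edgeR adjusted p = 0.336). The groups did not overlap, and its differences by name form were 0.41 and 0.13.

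Of the genes for degradation and its inhibitors 7 of 10 were tested, 4 above 0 and 3 below. The median was 0.05 pooled, and 0.12 and 0.03 within the name forms. At an unadjusted p under 0.05, 1 was higher, which was also the only one without overlap. That gene was Timp2, an inhibitor of matrix metalloproteinases, at 73.1, 63.6 and 61.2 CPM against 57.5, 45.8 and 43.7 CPM. The groups did not overlap, and the log2 fold change was 0.43 ± 0.12 (edgeR adjusted p = 0.254). Ctsk, the collagen-cutting protease cathepsin K, had 0.45 ± 0.26 (edgeR adjusted p = 0.502). Of the collagen receptors 6 of 8 were tested, 4 above 0 and 2 below, with 0 at an unadjusted p under 0.05 and 0 without overlap. Their median was 0.08 pooled, and 0.05 and 0.02 within the name forms. Itga10 and Itgb1, integrin chains of collagen receptors, had log2 fold changes of 0.46 ± 0.25 and -0.14 ± 0.11.

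Laminins and other basement membrane partners of type IV collagen had all 15 genes tested, 11 above 0 and 4 below. The median was 0.08 pooled, and 0.02 and 0.10 within the name forms. At an unadjusted p under 0.05, 1 was higher and 1 lower, and 2 were higher and 0 lower without overlap. Lamb2, the laminin chain of the glomerular and vascular basement membrane, was at 72.4, 77.3 and 68.7 CPM against 62.8, 60.4 and 56.7 CPM. The groups did not overlap, and the log2 fold change was 0.28 ± 0.08 (edgeR adjusted p = 0.258). Lamb3, a chain of the laminin of epithelial attachment, was at 1.43, 1.21 and 1.91 CPM against 1.64, 4.09 and 2.94 CPM, with -0.91 ± 0.36 as its log2 fold change (edgeR adjusted p = 0.385). The fibril-binding proteoglycans had 6 of 6 tested, 4 above 0 and 2 below, with 0 at an unadjusted p under 0.05 and 0 without overlap. Their median was 0.11 pooled, and it had opposite signs within the name forms, at -0.19 and 0.24. Ogn and Prelp, small leucine-rich proteoglycans of fibrils, had -0.30 ± 0.16 and 0.16 ± 0.12. Summed fibroblast and pericyte markers (10 genes) reached 131 to 146 CPM in PT-I-PpoI against 115 to 153 CPM in wild type, with 0 of 10 separating the groups.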

How the data were processed

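RNA-seq libraries of kidney cortex (3 PT-I-PpoI, 3 wild type) were made with a stranded kit for mRNA and read as pairs, per the labels' protocols. The authors deposited raw counts per gene, which featureCounts 1.5.2 made from HISAT2 alignments, per the file headers and the labels. The header sets no strand option and names an mm10 annotation, whereas the labels' protocols name mm9. All 44 collagen genes overlapped their RefSeq position in GRCm38.p6 (mm10), which is used here. The authors also deposited a table of rlog values on the log2 scale, and the submitters' processing notes list DESeq2. The rlog table was used for 1 alternative.

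Counts were tested in R 4.3.3 with edgeR 4.0.16, using filterByExpr (minimum count 10), TMM factors and the quasi-likelihood test over 13977 genes, two-sided, with Benjamini-Hochberg adjustment and a threshold of 0.05. The fit used all 6 libraries and the group alone. Differences within the name forms are of mean log2 CPM with a prior count of 2. The prior is the same in every library whatever its total. A gene with 0 counts in all 6 libraries therefore has differences of 0.17 and 0.21, and scarce genes are pulled towards these. Levels per kb use the table's exon length. Start sites and sequences come from RefSeq promoter windows, matched by symbol. The test was checked on simulated counts. DESeq2 1.42.0, limma 3.58.1 (voom and rlog), other size factors and filters, the replicate block, the name form as a term and leaving out each library were tried.

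The collagen genes, the pathway and marker lists and the naming rule were chosen with earlier results of these data known. The rule named any called collagen, the 3 most abundant per class, the 4 with the smallest p per direction, the chains that assemble together, and 2 genes per pathway list. Collagens outside it (such as Col3a1, Col4a6, Col15a1 and the scarce ones) were named after their values were seen. The inner medulla markers were also named singly after their values were seen.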

Additional observations from a re-analysis of the deposited data

How the results depend on the processing

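The count of genes called over all genes was 19 and moved to 47 without a filter, 185 with DESeq2, 40 with a replicate block, 64 with a term for the name form, and 0 to 625 when 1 library was left out. It was 625 without PT-I-PpoI replicate 3, 0 without PT-I-PpoI replicate 1 or 2 or wild type replicate 3, 2 without wild type replicate 1 and 9 without wild type replicate 2. Collagen calls were 0, except 1 with DESeq2 and 0 to 1 when 1 library was left out (Col19a1 in both, the latter without PT-I-PpoI replicate 3). Pathway calls were 0, except 1 with DESeq2 and 0 to 1 when 1 library was left out (P3h4 in both, again without PT-I-PpoI replicate 3). Without PT-I-PpoI replicate 3, no PT-I-PpoI library has a hyphen in its name, so group and name form are partly mixed there. The cause was not tested. The replicate numbers share only a number: deviations from the group means correlated at 0.211, -0.126 and 0.165 for numbers 1, 2 and 3, and PT-I-PpoI replicates 2 and 3 did not correlate best with their own number. The block called 0 collagens.

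The median log2 fold change of the other types (0.001) was 0.053 with at least 1 CPM in 3 libraries, 0.042 with a term for the name form and -0.109 to 0.057 when 1 library was left out. The median over all collagens was 0.00404 on rlog values and -0.016 to 0.081 when 1 library was left out. The summed level of the other types differed by 0.195 on the log2 scale with raw library totals. Signs turned for genes near 0. Col6a3 was at -0.0016 with DESeq2 size factors, -6.7e-06 without a filter, -0.0019 with DESeq2, -0.081 with a term for the name form and -0.109 to 0.112 when 1 library was left out. Col1a1 was at 0.0054 with upper-quartile factors and Col1a2 at -0.0076 with a term for the name form. When 1 library was left out, log2 fold changes ran from -0.359 to 0.142 for Col1a1, -0.082 to 0.238 for Col1a2, -0.014 to 0.037 for Col4a1, -0.059 to 0.014 for Col4a2, -0.062 to 0.052 for Col4a5, -0.103 to 0.253 for Col5a2, -0.019 to 0.109 for Col6a1 and -0.225 to 0.017 for Col14a1. Leaving out libraries from the ratios of partner chains was chosen after seeing the data, and no ratio changed the sign of its difference.

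Col18a1 kept its direction in all 15 alternatives, with adjusted p from 0.089 to 0.676. Col19a1 also kept its direction in the 15, with adjusted p from 0.031 to 0.657. Depth limits the 12 genes left out by the filter, which had 4 to 50 counts over the 6 libraries.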
